A study of Mus musculus with 12 samples.

Results

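Levels of 8 genes of plasma cells and antibody secretion, Jchain, Mzb1, Derl3, Pou2af1, Irf4, Prdm1, Ccr10 and Sdc1, are described in 12 libraries of mouse bone marrow haematopoietic stem cells (HSCs). The genes were found by symbol, each had 1 of the 35869 rows of the count table, and all 8 were among the 19395 genes that passed the low-count filter. They were selected on their knockout-against-control read counts in these same libraries, which were known to be lower in knockout, so their genotype values are given as a description with no test. Tests are given for the comparison of the 2 sort gates, which was not itself used for the choice. It reads the same libraries, however, so these tests are not independent of the choice.

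The HSCs were sorted by CD41, a platelet integrin chain whose gene is Itga2b, into a positive (CD41pos) and a negative (CD41neg) fraction. Knockout (KO) mice were MxCre1+/-,RUNX1f/f and control (WT) mice were MxCre1-/-,RUNX1f/f, so both carried the floxed gene of RUNX1, a transcription factor of blood formation. Mice of either genotype had been given poly(I:C), an inducer of interferon, in 4 injections and were studied 4 weeks later; animal ages are not given in the labels. The Mx promoter that drives the recombinase answers to interferon in many cell types, so recombination is not limited to HSCs. The 4 groups were CD41pos KO, CD41pos WT, CD41neg KO and CD41neg WT, with 3 libraries each. Total gene counts lay between 44108035 and 58946457 per library. The labels do not say how many animals gave a library, so p-values measure the spread between these libraries.

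Runx1 itself was read at 270, 382 and 325 CPM (counts scaled to the normalised library size) in CD41pos KO libraries, against 159, 141 and 147 CPM in CD41pos WT libraries. In CD41neg KO libraries it had 171, 157 and 163 CPM, against 84.0, 90.5 and 65.7 CPM in CD41neg WT libraries. Gene-level counts take in exons outside the floxed part, so these values do not check the deletion. Itga2b ran from 551 to 1270 CPM in CD41pos libraries and from 49.6 to 270 CPM in CD41neg libraries, with no overlap. The summed level of 11 HSC markers ran from 937 CPM in CD41pos WT 3 to 2320 CPM in CD41neg KO 1. CD41pos WT 1 and 4 had 1780 and 1950 CPM. Among the WT libraries, the 4 that carry the library numbers 1, 2, 5 and 6 (CD41pos WT 1 and 4, CD41neg WT 2 and 4) stood apart from the other 8. They had 18.6 to 27.7 CPM of Nr4a1, an early response gene, against 237 to 396 CPM in the other 8 libraries. They also had 0.37 to 1.66 CPM of Atf3, a stress response gene, against 31.4 to 85.6 CPM. These libraries, called the 4 low-numbered WT libraries here, are all WT, and no KO library is among them. CD41pos WT 3 and CD41neg WT 3 had 345 and 320 CPM of Nr4a1, within the range of the KO libraries. A difference carried by the 4 libraries alone therefore cannot be told apart from one of genotype except through WT 3. Every WT value is therefore given by library, and each comparison is repeated without them. That leaves 1 WT library a gate (WT 3), which is assumed to vary like the KO libraries. Whether WT 3 is the more typical WT library was not tested, and CD41pos WT 3 had the lowest HSC marker sum of all libraries. Both Xist and the Y-linked Ddx3y were read in 4 WT libraries (113 to 339 and 11.2 to 38.9 CPM), namely replicates 3 and 4 of CD41pos WT and 2 and 3 of CD41neg WT. CD41pos WT 1 and CD41neg WT 4 had 246 and 259 CPM of Xist and 0.0355 and 0 CPM of Ddx3y. KO 2 had 318 (CD41pos) and 308 CPM (CD41neg) of Xist and 0.161 and 0.155 CPM of Ddx3y. KO 1 and 3 had 0.843 to 1 CPM of Xist and 83.4 to 103 CPM of Ddx3y. The genotypes thus differed in these sex-linked genes, and the part of sex in the genotype values was not tested.

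Plasma cells are the antibody-secreting end stage of the B cell lineage, and long-lived ones reside in bone marrow. IRF4 and BLIMP-1, the product of Prdm1, are transcription factors that drive the change from B cell to plasma cell, and BLIMP-1 shuts down the B cell programme. The secretory machinery of these cells is enlarged through the unfolded protein response, in which the transcription factor XBP1 acts. The J chain joins immunoglobulin units into the polymers of IgM and IgA, MZB1 is an endoplasmic reticulum (ER) protein that aids antibody assembly and secretion, and DERL3 takes part in the removal of misfolded proteins from the ER. POU2AF1 (OCA-B) is a B-lineage coactivator that works with octamer-binding factors. CCR10 is the receptor of the chemokines CCL27 and CCL28, and SDC1 (CD138) is the heparan sulphate proteoglycan by which plasma cells are commonly sorted. Stem cells are not known as a site of antibody secretion.

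On the GRCm38 (mm10) build, GENCODE vM21 places Jchain on the minus strand of chromosome 5 from 88519809 to 88527891 and Derl3 on the plus strand of chromosome 10 from 75893413 to 75895941. Pou2af1 lies on the plus strand of chromosome 9 from 51213708 to 51240080. Irf4 lies on the plus strand of chromosome 13 from 30749226 to 30766976, and Prdm1 on the minus strand of chromosome 10 from 44437177 to 44528501. Ccr10 is on the minus strand of chromosome 11 from 101172997 to 101175443, and Sdc1 on the plus strand of chromosome 12 from 8771323 to 8793715.

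Promoters of 6 of the 8 genes were taken from a RefSeq table of GRCm38.p6. Ccr10 had no entry in it, and Mzb1 was left out of the search. Of the 6, 3 are shown to set the most abundant member (Jchain) beside an ER member (Derl3) and a regulator (Pou2af1). Each is the 250 bases before the RefSeq start, 5′ to 3′ on the gene's strand. Capitals mark matches on either strand to the octamer core TGCAAAT, to the core TGACGTGG of unfolded protein response elements, to the ER stress element parts CCAAT and CCACG, and to the E-box CACGTG. Matches to the last pair can overlap, and CCACG read on the other strand lies inside TGACGTGG.
Jchain (chr5:88527898-88528147, minus strand): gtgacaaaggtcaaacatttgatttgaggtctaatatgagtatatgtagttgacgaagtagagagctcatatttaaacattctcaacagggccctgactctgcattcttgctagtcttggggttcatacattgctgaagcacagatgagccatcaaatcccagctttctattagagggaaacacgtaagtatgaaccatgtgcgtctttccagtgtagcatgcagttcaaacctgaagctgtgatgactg
Derl3 (chr10:75893148-75893397, plus strand): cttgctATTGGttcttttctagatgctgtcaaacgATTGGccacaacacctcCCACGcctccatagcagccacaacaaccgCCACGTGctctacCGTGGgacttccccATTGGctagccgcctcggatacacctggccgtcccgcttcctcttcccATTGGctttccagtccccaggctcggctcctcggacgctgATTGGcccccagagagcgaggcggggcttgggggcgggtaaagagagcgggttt
Pou2af1 (chr9:51213440-51213689, plus strand): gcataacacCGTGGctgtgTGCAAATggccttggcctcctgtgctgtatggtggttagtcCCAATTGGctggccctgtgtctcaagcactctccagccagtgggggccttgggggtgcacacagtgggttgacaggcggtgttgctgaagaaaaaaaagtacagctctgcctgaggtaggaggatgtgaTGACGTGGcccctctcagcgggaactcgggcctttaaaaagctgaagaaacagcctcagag
The Jchain window held none of the searched letters. The Derl3 window held CCAAT 5 times, CCACG 3 times and CACGTG once, from -168 to -163 relative to the start. The Pou2af1 window held TGCAAAT from -231 to -225 and TGACGTGG from -61 to -54. Over 32851 promoters of the same length, TGACGTGG was found in 0.563%, CACGTG in 6.02%, TGCAAAT in 3.56%, CCACG in 28.3% and CCAAT in 33.8%. Of the 6 promoters of these genes, 1 held TGACGTGG, 1 held CACGTG, 2 held TGCAAAT, 5 held CCACG and 4 held CCAAT. The full octamer ATGCAAAT (1.6% of all promoters), the RUNX core TGTGGT (14.0%) and the BLIMP-1 core GAAAGT (12.3%) had no match in the 6 windows on either strand. A match or its absence describes these letters only.

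Scaled for transcript length and library size (TPM), Jchain led the group in every library. It had 65.3, 18.8 and 16.6 TPM in CD41pos KO libraries, against 882.5, 89.7 and 739.8 TPM in CD41pos WT libraries. It had 158.2, 76.6 and 149.3 TPM in CD41neg KO libraries, against 4443.5, 416.4 and 3111.3 TPM in CD41neg WT libraries. By reads its rank among all genes ran from 3172 to 10061 in the KO libraries, whereas it was the gene with most reads of all in CD41neg WT 2 (144780 reads) and CD41neg WT 4 (113498 reads). On the TPM scale the mean levels in CD41neg WT libraries followed the order Jchain (2657 ± 2052), Mzb1 (104.5 ± 89.5), Pou2af1 (34.6 ± 28.3), Ccr10 (25.6 ± 21.6), Sdc1 (22.0 ± 17.5), Derl3 (19.5 ± 16.9), Irf4 (3.97 ± 2.04) and Prdm1 (1.03 ± 0.85; SD, n = 3). Neighbours in that order from Mzb1 down to Irf4 differed by less than the SD of the higher one. In CD41pos KO libraries the order was Jchain (33.6 ± 27.5), Sdc1 (5.10 ± 0.458), Mzb1 (3.30 ± 1.93), Pou2af1 (2.93 ± 1.88) and Derl3 (1.67 ± 0.862), with Ccr10, Irf4 and Prdm1 below 1 TPM (SD, n = 3). The 2 transcription factors that direct plasma cell differentiation were thus the least abundant members in the WT group in which the J chain was highest.

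**Figure D1:**
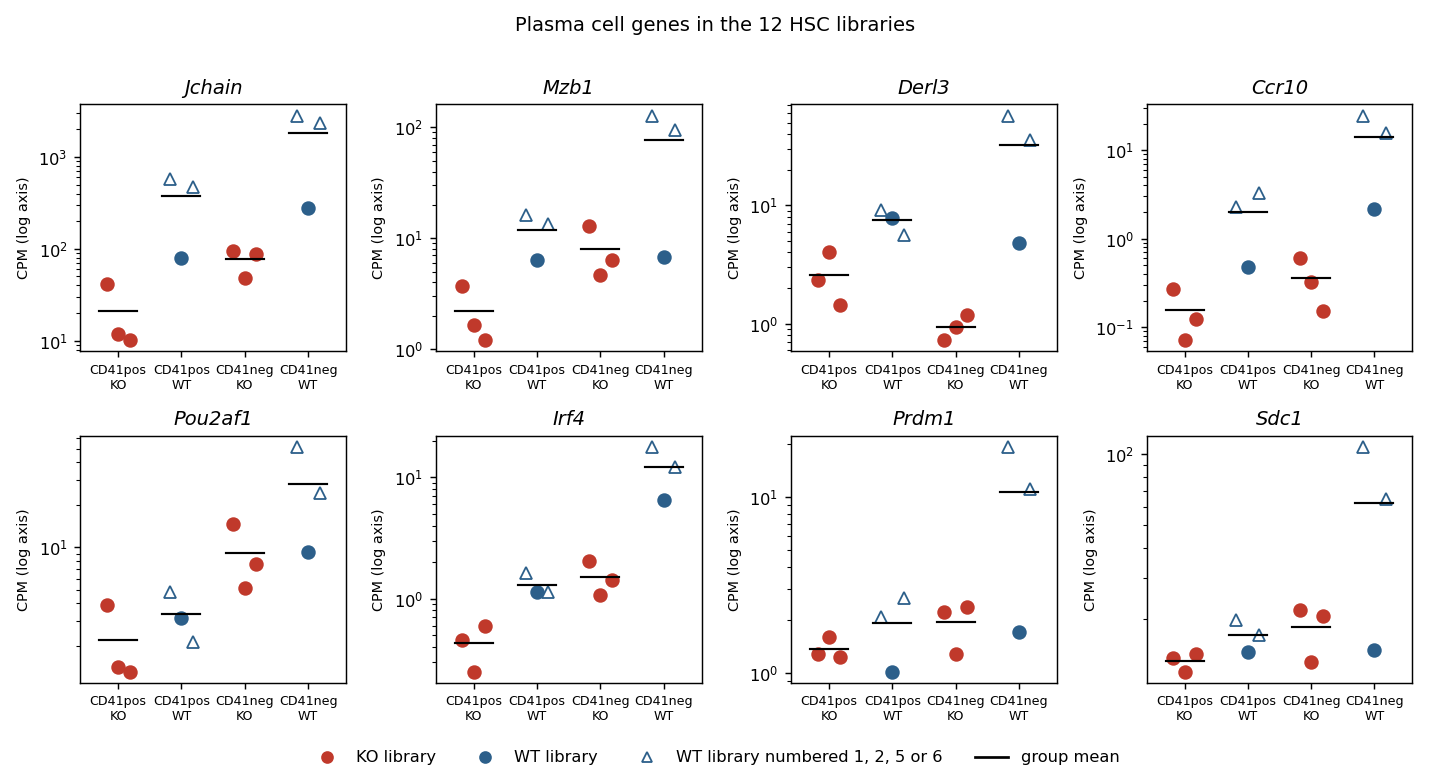
Levels of the 8 genes in CPM on a log axis, 1 point a library, with KO libraries in red, WT libraries in blue, open triangles for the 4 low-numbered WT libraries (numbers 1, 2, 5 and 6) and a line at each group mean. CD41neg WT 2 and 4 are the highest libraries for all 8 genes; CD41neg WT 3 lies among the CD41neg KO libraries for Mzb1, Pou2af1, Prdm1 and Sdc1.

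Among the genes of antibody assembly and secretion, Jchain showed the widest range. It had 41.1, 11.7 and 10.1 CPM in CD41pos KO libraries, against 581, 79.3 and 471 CPM in CD41pos WT libraries. It had 95.1, 48.4 and 88.4 CPM in CD41neg KO libraries, against 2822, 276 and 2346 CPM in CD41neg WT libraries. In both gates every KO library lay below every WT library, and WT 3 was the lowest WT library. The fitted log2 fold change of KO over WT was -4.17 ± 0.917 (SE) in CD41pos and -4.55 ± 0.932 in CD41neg HSCs. Without the 4 low-numbered WT libraries these were -1.82 ± 0.674 and -1.84 ± 0.666. The J chain was thus lower in KO also against WT 3 alone, by a smaller amount.

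Mzb1 had 3.74, 1.65 and 1.21 CPM in CD41pos KO libraries, against 16.1, 6.36 and 13.5 CPM in CD41pos WT libraries. In CD41neg KO libraries it had 13.0, 4.66 and 6.41 CPM, against 127, 6.83 and 94.1 CPM in CD41neg WT libraries. The CD41pos groups did not overlap, whereas CD41neg WT 3 lay inside the range of the CD41neg KO libraries. The log2 fold change was -2.45 ± 0.819 in CD41pos and -3.25 ± 0.828 in CD41neg HSCs. With these 4 WT libraries left out, it was -1.43 ± 0.664 in CD41pos HSCs and 0.22 ± 0.709 in CD41neg HSCs, where the direction turned. In the same annotation Mzb1, on the minus strand of chromosome 18 from 35647267 to 35649367, shares 695 of its 1215 exonic bases with an entry named SPATA24 on the same strand. The sources used here do not state how reads of the shared stretch were counted, so the Mzb1 counts are uncertain to that extent.

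Derl3, of the ER degradation machinery, had 2.32, 4.05 and 1.42 CPM in CD41pos KO libraries, against 9.21, 7.76 and 5.56 CPM in CD41pos WT libraries. It had 0.725, 0.929 and 1.17 CPM in CD41neg KO libraries, against 57.3, 4.81 and 35.6 CPM in CD41neg WT libraries. The genotypes did not overlap in either gate. Its log2 fold change was -1.53 ± 0.648 in CD41pos and -5.11 ± 0.752 in CD41neg HSCs. Without the 4 low-numbered WT libraries it was -1.48 ± 0.516 and -2.35 ± 0.515. Unlike for Jchain, CD41pos WT 3 was not the lowest library of its group.

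The transcriptional regulators differed from each other. Irf4 had 0.456, 0.251 and 0.597 CPM in CD41pos KO libraries, against 1.61, 1.14 and 1.14 CPM in CD41pos WT libraries. It had 2.04, 1.07 and 1.41 CPM in CD41neg KO libraries, against 17.7, 6.54 and 12.1 CPM in CD41neg WT libraries. No KO library reached a WT library of its gate, and CD41neg WT 3 was well above all CD41neg KO libraries. The log2 fold change of Irf4 was -1.57 ± 0.433 in CD41pos and -3.01 ± 0.431 in CD41neg HSCs, and -1.28 ± 0.548 and -2.12 ± 0.501 without the 4 low-numbered WT libraries. Irf4 counts were low, with 14 to 34 reads in CD41pos KO libraries and 288 to 908 reads in CD41neg WT libraries.

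Prdm1 had 1.28, 1.61 and 1.23 CPM in CD41pos KO libraries, against 2.09, 1.02 and 2.67 CPM in CD41pos WT libraries. In CD41neg KO libraries it had 2.23, 1.29 and 2.36 CPM, against 19.2, 1.70 and 11.2 CPM in CD41neg WT libraries. Both gates overlapped, and WT 3 lay at or below the KO level. The log2 fold change was -0.49 ± 0.638 in CD41pos and -2.45 ± 0.657 in CD41neg HSCs, and 0.52 ± 0.488 and 0.20 ± 0.471 without the 4 low-numbered WT libraries. The lower Prdm1 level of CD41neg KO HSCs thus rested on CD41neg WT 2 and 4.

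Pou2af1 had 3.89, 1.42 and 1.32 CPM in CD41pos KO libraries, against 4.82, 3.16 and 2.12 CPM in CD41pos WT libraries. It had 14.7, 5.11 and 7.57 CPM in CD41neg KO libraries, against 51.3, 9.29 and 24.1 CPM in CD41neg WT libraries. The genotypes overlapped in both gates. Its log2 fold change was -0.61 ± 0.619 in CD41pos and -1.63 ± 0.614 in CD41neg HSCs, and -0.42 ± 0.723 and -0.03 ± 0.717 without the 4 low-numbered WT libraries.

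Of the surface proteins, Ccr10 had the fewest reads of the 8 in every KO library. It had 0.274, 0.0717 and 0.123 CPM in CD41pos KO libraries (15, 4 and 7 reads), against 2.29, 0.477 and 3.28 CPM in CD41pos WT libraries (129, 21 and 195 reads). It had 0.608, 0.327 and 0.153 CPM in CD41neg KO libraries, against 24.6, 2.18 and 15.8 CPM in CD41neg WT libraries. No KO library overlapped the WT libraries of its gate. The log2 fold change was -3.68 ± 0.949 in CD41pos and -5.29 ± 0.959 in CD41neg HSCs, the lowest of the 8 in the CD41neg gate. With these 4 WT libraries left out it was -1.50 ± 0.917 and -2.59 ± 0.833.

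Sdc1 had 13.7, 12.03 and 14.2 CPM in CD41pos KO libraries, against 20.0, 14.6 and 17.2 CPM in CD41pos WT libraries. In CD41neg KO libraries it had 21.9, 13.2 and 20.7 CPM, against 107, 14.8 and 64.6 CPM in CD41neg WT libraries. The CD41pos groups touched without overlap, and CD41neg WT 3 lay within the CD41neg KO range. Its log2 fold change was -0.37 ± 0.483 in CD41pos and -1.74 ± 0.493 in CD41neg HSCs, and -0.03 ± 0.29 and 0.32 ± 0.296 without the 4 low-numbered WT libraries.

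**Figure D2:**
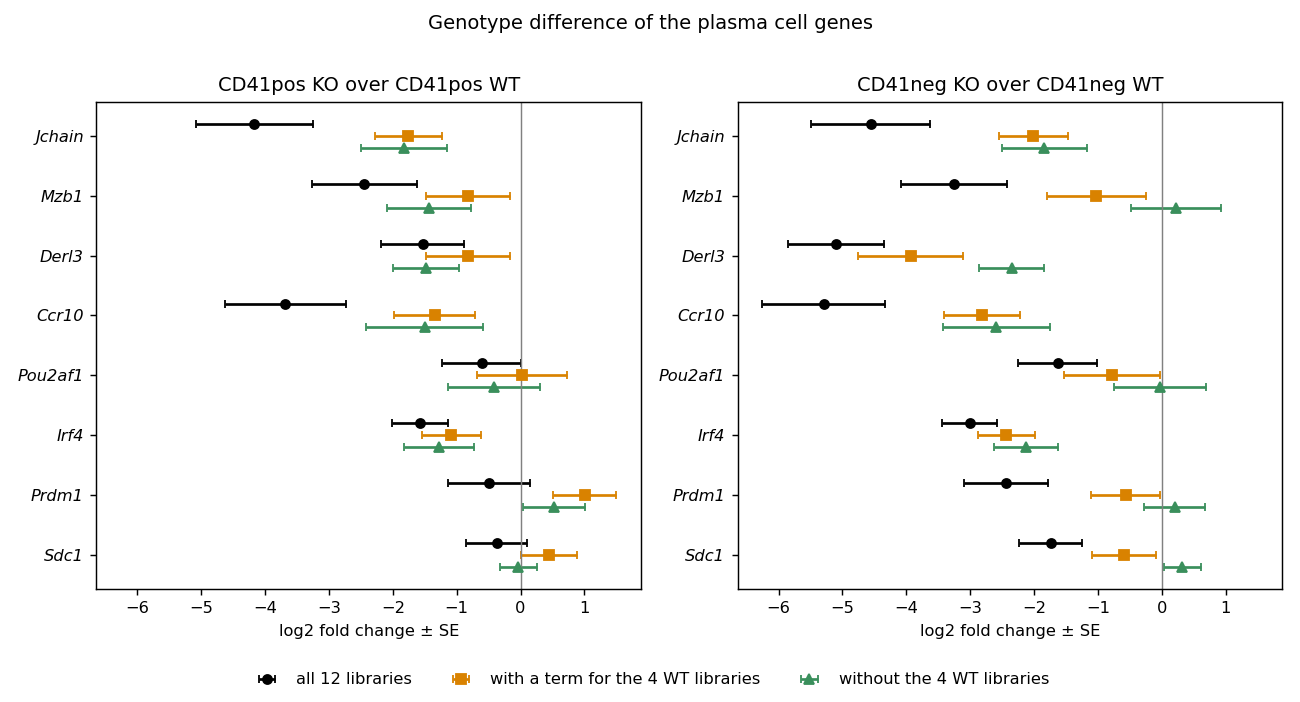
Log2 fold change of KO over WT with its SE for the 8 genes in each gate, from all 12 libraries (black), with a term for the 4 low-numbered WT libraries (orange) and without these libraries (green). Jchain, Derl3, Ccr10 and Irf4 stay below 0 in both gates under all 3 fits, whereas the CD41neg values of Mzb1, Prdm1 and Sdc1 are above 0 without the 4 libraries.

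All KO libraries lay below all WT libraries of the gate for 6 of 8 genes in CD41pos HSCs, beside 22.4% of all genes, and for 4 of 8 in CD41neg HSCs, beside 17.0%. These counts describe a choice made on the same values. The median log2 fold change of the 8 was -1.55 in CD41pos and -3.13 in CD41neg HSCs, beside -0.082 and -0.026 over all genes tested. In bulk libraries fewer cells of a type and less RNA per cell cannot be told apart.

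The 8 genes did not scale together within the WT groups. Relative to CD41neg WT 3, CD41neg WT 2 and 4 had 18.7-fold and 13.8-fold more CPM of Mzb1, 11.9-fold and 7.40-fold more of Derl3, and 11.3-fold and 6.56-fold more of Prdm1. Jchain was 10.2-fold and 8.50-fold higher there, but Irf4 only 2.71-fold and 1.84-fold. In the CD41pos gate, relative to CD41pos WT 3, CD41pos WT 1 and 4 had 7.33-fold and 5.94-fold more Jchain, but 1.42-fold and 1.01-fold the level of Irf4 and 1.19-fold and 0.716-fold that of Derl3. The same libraries had 4.80-fold and 6.87-fold more Ccr10, while CD41neg WT 2 and 4 had 11.3-fold and 7.25-fold more of it than CD41neg WT 3. Jchain and Ccr10 were thus several-fold above WT 3 in these libraries of both gates, and Derl3 in those of the CD41neg gate alone.

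On the TPM scale, Mzb1 amounted to 8.42%, 13.3% and 11.4% of the Jchain level in CD41pos KO libraries, against 2.58%, 7.47% and 2.68% in CD41pos WT libraries. It was 12.7%, 9.01% and 6.77% in CD41neg KO libraries, against 4.22%, 2.31% and 3.74% in CD41neg WT libraries. All KO libraries of a gate lay above all WT libraries in this ratio. For Sdc1 the share of the Jchain TPM was 7.96%, 24.5% and 33.1% in CD41pos KO libraries, against 0.816%, 4.35% and 0.865% in CD41pos WT libraries. It was 5.50%, 6.53% and 5.56% in CD41neg KO libraries, against 0.905%, 1.27% and 0.656% in CD41neg WT libraries. For Sdc1, too, KO libraries had the higher share in both gates, with no overlap of the groups, as for Pou2af1 and Prdm1. The shares of Derl3 and Irf4 overlapped between genotypes in both gates. The Ccr10 share overlapped in the CD41pos gate and was lower in all KO libraries of the CD41neg gate. Jchain was itself chosen as lower in KO, so a higher share in KO is not a separate result. How many of all genes show such a split was not computed.

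The gate comparison asked whether the CD41pos fraction differed from the CD41neg fraction within a genotype. Its libraries are those in which the 8 genes were chosen, so counts of members called are not independent of that choice. In WT HSCs 4 of the 8 genes, all regulators and Sdc1, were lower in CD41pos than in CD41neg libraries, beside 2.87% of all genes tested, and 0 of 8 were higher, beside 2.72%. By edgeR's quasi-likelihood test with Benjamini-Hochberg adjustment, the log2 fold change of CD41pos over CD41neg was -3.22 ± 0.436 for Irf4 (adjusted p = 0.00203) and -3.07 ± 0.651 for Pou2af1 (adjusted p = 0.0195). All 3 CD41pos WT libraries lay below all 3 CD41neg WT libraries for these 2 genes, as for 11.4% of all genes tested. Prdm1 fell by 2.47 (SE 0.657, adjusted p = 0.0486) and Sdc1 by 1.85 (SE 0.495, adjusted p = 0.0493) on the log2 scale, with overlap of the groups. Leaving out 1 of the 12 libraries at a time, Prdm1 and Sdc1 were called in 1 fit each (without CD41neg WT 3) and Pou2af1 in 10. The edgeR adjusted p was 0.0675 for Pou2af1, 0.176 for Prdm1 and 0.185 for Sdc1 without CD41neg WT 2, and 0.062 for Pou2af1 without CD41pos WT 4. The Irf4 call held in all 12 fits that left out 1 library. Without the 4 low-numbered WT libraries the Irf4 value was -2.60 ± 0.712. That fit sets 1 WT library against 1, so no call is drawn from it. Jchain (-2.27 ± 0.841, adjusted p = 0.138), Mzb1 (-2.67 ± 0.807, 0.0748), Derl3 (-2.12 ± 0.65, 0.0776) and Ccr10 (-2.81 ± 0.838, 0.0713) did not pass edgeR's adjusted threshold. In the fits without the 4 low-numbered WT libraries, Derl3 was at 0.61 ± 0.676, with 7.76 CPM in CD41pos WT 3 and 4.81 CPM in CD41neg WT 3.

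In KO HSCs Irf4 was the 1 member of 8 called, lower in CD41pos than in CD41neg libraries at -1.78 ± 0.434 (edgeR adjusted p = 0.0495), beside 1.23% of all genes tested. None of the 8 was called higher (0 of 8, beside 1.56%). Jchain (-1.88 ± 0.836), Mzb1 (-1.86 ± 0.807) and Pou2af1 (-2.05 ± 0.632) did not pass, with edgeR adjusted p-values of 0.347, 0.331 and 0.128, although all CD41pos KO libraries lay below all CD41neg KO libraries for these genes and Irf4. Such a split was found in 14.1% of all genes. The KO replicate numbers pair the gates. With the 6 KO libraries fitted alone and this pairing as a block, Pou2af1 (-2.10 ± 0.209, adjusted p = 0.00358), Mzb1 (-1.90 ± 0.23, 0.0058), Jchain (-2.12 ± 0.338, 0.013) and Irf4 (-1.82 ± 0.394, 0.0325) were lower in CD41pos KO libraries, each in 3 of 3 pairs. These were 4 of 8, beside 5.81% of all genes in that fit, and 0 of 8 were higher, beside 6.56%. That fit was chosen after seeing the data. With the block in the fit of all 12 libraries, 0 of the 8 were called lower, beside 0.304% of all genes. There Irf4 had an edgeR adjusted p of 0.0738. That block also joins WT libraries of the same number, whose deviations from their group means correlated at 0.098 (WT 3) and -0.48 (WT 4). Without the 4 low-numbered WT libraries Irf4 was again the 1 of 8 called lower, beside 2.47%. In leave-one-out fits of all groups Irf4 was called in 2 of 12 (without WT 3 of either gate), with an adjusted p of up to 0.208 (without CD41pos KO 2). Ccr10 (-1.20 ± 0.962), Prdm1 (-0.51 ± 0.638) and Sdc1 (-0.48 ± 0.483) passed in neither fit.

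Derl3 was the exception among KO libraries. All 3 CD41pos KO libraries (2.32, 4.05 and 1.42 CPM) were above all 3 CD41neg KO libraries (0.725, 0.929 and 1.17 CPM), as for 15.7% of all genes tested, with a log2 fold change of 1.46 ± 0.67 that did not pass the test (edgeR adjusted p = 0.371, and 0.0881 in the blocked KO fit). The genotype difference of Derl3 was 3.57 ± 0.932 smaller on the log2 scale in CD41pos than in CD41neg HSCs. For the interaction of genotype and gate, edgeR called 0 of the 8 genes and 0 of all 19395 (0%), 1093 had an unadjusted p under 0.05, and DESeq2 called 72. The interaction of the other members ran from 0.39 ± 1.14 for Jchain to 1.95 ± 0.901 for Prdm1. With these 4 WT libraries left out the Derl3 value was 0.87 ± 0.786.

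**Figure D3:**
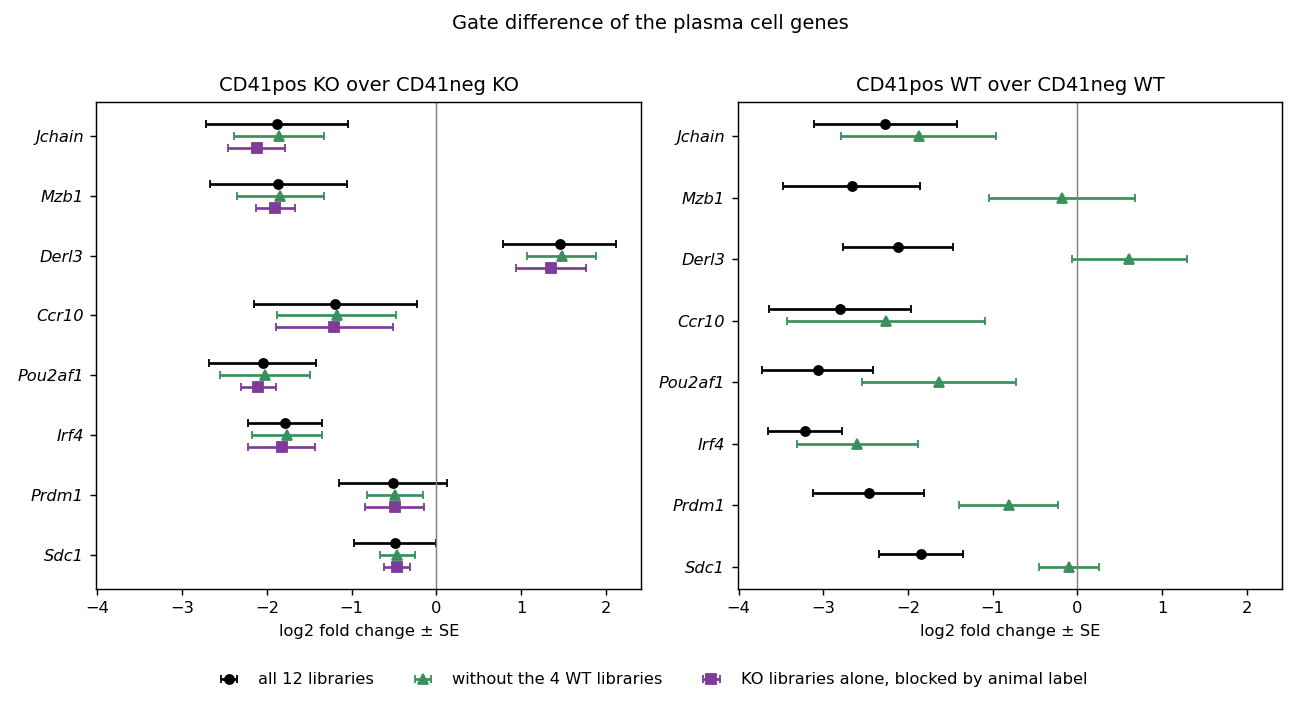
Log2 fold change of CD41pos over CD41neg libraries with its SE, in KO (left) and WT (right), from all 12 libraries (black), without the 4 low-numbered WT libraries (green) and, for KO, from the 6 KO libraries alone with their replicate numbers as a block (purple). All members but Derl3 lie below 0 in KO under the fits shown; Irf4 is the gene that stays farthest below 0 in WT without the 4 libraries.

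The genotype comparison of other genes was tested with edgeR across all genes, at an adjusted p under 0.05. The gene lists were chosen with earlier results of these data known. Counts called within a list therefore describe it and are not an independent test. In CD41neg KO 3.97% of all genes tested were lower and 3.85% higher, and in CD41pos KO 7.27% were lower and 9.79% higher. Of 11 other plasma cell genes, 6 were lower and 0 higher in CD41neg KO than in CD41neg WT libraries: Tnfrsf17, Bhlha15, Eaf2, Fkbp11, Txndc5 and Xbp1. Their median log2 fold change was -1.36, beside -0.026 over all genes. Tnfrsf17, the gene of the plasma cell survival receptor BCMA, had 0.137, 0.241 and 0.306 CPM in CD41neg KO libraries, against 16.7, 0.613 and 11.6 CPM in CD41neg WT libraries (log2 fold change -5.38 ± 1.06, edgeR adjusted p = 0.0137). Txndc5, an ER oxidoreductase, had 173, 182 and 180 CPM in CD41neg KO libraries, against 647, 250 and 478 CPM in CD41neg WT libraries (-1.36 ± 0.252, edgeR adjusted p = 0.0105). Xbp1 had 183, 134 and 185 CPM in CD41neg KO libraries, against 493, 216 and 425 CPM in CD41neg WT libraries (-1.18 ± 0.238, edgeR adjusted p = 0.0146). Again CD41neg WT 2 and 4 were the highest libraries. 

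In CD41pos HSCs 3 of the 11 were lower in KO and 0 were higher (Fkbp11, Tnfrsf17 and Bhlha15), with a median of -0.44 beside -0.082. Fkbp11, an ER-resident prolyl isomerase, had 15.6, 20.1 and 16.4 CPM in CD41pos KO libraries, against 44.9, 64.8 and 31.6 CPM in CD41pos WT libraries (-1.44 ± 0.253, edgeR adjusted p = 0.00523). Here WT 3 was the highest and not the lowest WT library, as for none of the 8 members. Without the 4 low-numbered WT libraries, 3 of the 11 were lower and 2 higher in CD41pos KO, beside 14.2% and 19.4% of all genes, and 2 lower and 1 higher in CD41neg KO, beside 3.34% and 4.11%. Between gates, Fkbp11 was higher in CD41pos than in CD41neg libraries, by 1.18 ± 0.252 in WT (edgeR adjusted p = 0.0198) and by 1.74 ± 0.258 in KO (edgeR adjusted p = 0.00351). In WT, Ell2, an elongation factor that takes part in immunoglobulin mRNA processing, was lower in CD41pos libraries (-1.92 ± 0.272, edgeR adjusted p = 0.00256), as was Slamf7 (-2.57 ± 0.682, edgeR adjusted p = 0.0479). No other gene of the list was called between gates in the fit of all libraries. Of 12 immunoglobulin constant genes looked for, none has a row in the tables used here, and they are not analysed here.

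Of 38 genes of ER folding, translocation and degradation, 7 were higher and 1 was lower in CD41pos KO than in CD41pos WT libraries, with a median log2 fold change of 0.0803. None of the 38 was called in CD41neg HSCs, where the median was -0.113. Hsp90b1 (0.73 ± 0.114, edgeR adjusted p = 0.00342) and Canx (0.64 ± 0.116, 0.00599), a chaperone pair of the ER lumen and membrane, were higher in CD41pos KO, and Ssr2, of the translocon, was lower (-0.65 ± 0.179, 0.0291). Derl1, a relative of Derl3, was higher (0.37 ± 0.112, 0.0398). Between gates in KO, 5 of 38 were higher in CD41pos libraries, beside 1.56% of all genes, and 0 lower, beside 1.23%. In the blocked fit of the KO libraries, added after seeing the data, 19 were higher, beside 6.56%, and 0 lower, beside 5.81%. The summed level of the 38 genes was 9940 to 10800 CPM in CD41pos KO, 8990 to 9870 in CD41pos WT, 7990 to 8720 in CD41neg KO and 9020 to 9340 CPM in CD41neg WT libraries. KO libraries were thus higher in this sum in the CD41pos gate and lower in the CD41neg gate, with no overlap in either. In WT, 1 of 38 (Calr) was higher in CD41pos libraries, beside 2.72% of all genes.

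Among 13 partner and opposing transcription factors, 12 were tested. In CD41pos HSCs 2 were lower in KO, Irf8 (-0.98 ± 0.189, edgeR adjusted p = 0.00752) and Spi1 (-1.19 ± 0.268, 0.0133), the gene of PU.1, both of them factors of myeloid and B cell development. In CD41neg HSCs 2 were lower in KO, Irf8 (-1.04 ± 0.19, edgeR adjusted p = 0.0101) and Ikzf3 (-2.18 ± 0.612, 0.0487), a lymphoid zinc finger factor. Between gates, Ikzf1 was lower and Irf8 higher in CD41pos libraries in both genotypes, the 2 genes called in each. Pou2f1 and Pou2f2, which encode the octamer-binding partners of POU2AF1, were not called in any comparison. Pax5, which keeps B cell identity and is repressed by BLIMP-1, had 0.292, 0.0896 and 0.281 CPM in CD41pos KO and 1.18, 0.705 and 0.748 CPM in CD41neg KO libraries. It was read at 0 to 0.0168 CPM in the 4 low-numbered WT libraries and at 0.159 and 0.658 CPM in CD41pos WT 3 and CD41neg WT 3. Pax5 was not called between genotypes. Its log2 fold change of KO over WT was 1.96 ± 1.55 in CD41pos HSCs (edgeR adjusted p = 0.389). In CD41neg HSCs it was 2.00 ± 1.43 (edgeR adjusted p = 0.398). A relation of Pax5 to Prdm1 was not tested.

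Of 15 homing and survival ligands and receptors, 2 were higher (Itga4 and Itgb1) and 4 lower (Cxcl12, Ccl27a, Tnfsf13 and Tnfrsf13c) in CD41pos KO than in CD41pos WT libraries. In CD41neg KO 1 was higher and 1 lower. Cxcl12, the chemokine that retains plasma cells and stem cells in marrow, had 8.08, 11 and 9.22 CPM in CD41pos KO libraries, against 87.1, 127 and 56.7 CPM in CD41pos WT libraries (-3.26 ± 0.366, edgeR adjusted p = 0.0015). In CD41neg KO libraries it had 6.66, 3.03 and 4.79 CPM, against 92.2, 144 and 71.7 CPM in CD41neg WT libraries (-4.41 ± 0.388, 0.000409). WT 3 was the highest library for Cxcl12 in both gates, unlike for the 8 members. Itga4, a subunit of the integrin by which plasma cells adhere, was higher in KO (1.03 ± 0.191 in CD41pos and 1.18 ± 0.191 in CD41neg HSCs, edgeR adjusted p = 0.00626 and 0.00634). Of the ligands of CCR10, Ccl27a was lower in CD41pos KO (-0.87 ± 0.243, edgeR adjusted p = 0.0308), and Ccl28 was read at 0 to 0.507 CPM. No gene of the list was called between gates. Of the 3 other syndecans, Sdc2 was lower in KO in CD41pos (-1.61 ± 0.295, edgeR adjusted p = 0.0062) and CD41neg HSCs (-2.51 ± 0.307, 0.00192), and higher in CD41pos than in CD41neg KO libraries (1.37 ± 0.298, 0.0291). Sdc3 and Sdc4 were not called.

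Markers of other cells were read beside the 8 genes. Of 17 B cell markers, 0 were called between genotypes in CD41pos HSCs, and 2 were higher and 0 lower in CD41neg KO than in CD41neg WT libraries. These were Rag1 (6.71 ± 1.27, edgeR adjusted p = 0.0118) and Rag2 (3.64 ± 0.994, 0.0446), of the recombinase of early lymphoid cells. Rag1 had 4.74, 2.10 and 2.86 CPM in CD41neg KO libraries, against 0, 0.0908 and 0 CPM in CD41neg WT libraries, so the fitted fold change depends on how zeros are handled in the model. In WT, Cd79a (-2.56 ± 0.654, edgeR adjusted p = 0.0415) and Blnk (-2.69 ± 0.533, 0.0139), of B cell receptor signalling, were lower in CD41pos than in CD41neg libraries. In KO 0 of 17 were called between gates. In the blocked fit of the KO libraries, added after seeing the data, 9 were lower in CD41pos libraries, beside 5.81% of all genes. The summed B cell markers ran from 72.3 to 99.3 CPM in CD41pos KO, from 84.8 to 94.5 in CD41pos WT, from 88.1 to 211 in CD41neg KO and from 121 to 199 CPM in CD41neg WT libraries. Cd79a, a signalling chain of the B cell receptor, had 6.71 to 21.3 CPM in CD41neg KO libraries, against 88.7, 12.3 and 51.6 CPM in CD41neg WT libraries. Jchain was the gene with most reads in CD41neg WT 4. There 3 of the 17 B cell markers (Cd22, Igll1 and Rag1) were at 0, as was Pax5 of another list. The rest of the 17 were read, with Cd79a at 51.6 CPM in a sum of 124 CPM.

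Of 13 stromal and endothelial markers, 4 were lower and 0 higher in CD41pos KO, and 8 lower and 0 higher in CD41neg KO. The collagen gene Col1a1 had 0.401, 0.376 and 0.579 CPM in CD41pos KO libraries, against 124, 3.11 and 80.3 CPM in CD41pos WT libraries (-7.24 ± 1.96, edgeR adjusted p = 0.0274). It had 0.941, 0.275 and 0.119 CPM in CD41neg KO libraries, against 361, 2.38 and 4.30 CPM in CD41neg WT libraries (-8.14 ± 2.03, 0.0331). CD41neg WT 2 and 4 were thus both high for the 8 plasma cell genes. For Col1a1, CD41neg WT 4 was near CD41neg WT 3 and far below CD41neg WT 2, though above every CD41neg KO library. The summed stromal markers were 114 to 125 CPM in CD41pos KO, 115 to 382 in CD41pos WT, 80.7 to 126 in CD41neg KO and 186 to 872 CPM in CD41neg WT libraries. Of 9 basophil and mast cell markers tested of 12, 3 were lower and 0 higher in KO in each gate. Prss34, a basophil protease, had at most 0.774 CPM in KO libraries and 59.5 to 379 CPM in WT libraries. Their summed level was 740 to 769 CPM in CD41pos KO, 956 to 1320 in CD41pos WT, 601 to 694 in CD41neg KO and 679 to 1060 CPM in CD41neg WT libraries.

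Of 14 granulocyte and monocyte markers, 7 were lower in CD41pos KO and 6 in CD41neg KO, with 0 higher. Between gates, 6 (WT) and 4 (KO) were higher in CD41pos than in CD41neg libraries, beside 2.72% and 1.56% of all genes. Their summed level was 1870 to 4250 CPM in CD41pos KO, 5400 to 6710 in CD41pos WT, 480 to 1230 in CD41neg KO and 1980 to 3010 CPM in CD41neg WT libraries. For the called genes and the sum, the direction between gates was thus opposite to that of Irf4 and Pou2af1. S100a8, S100a9, Ngp and Ly6g were instead lower in CD41pos libraries in both genotypes, without a call. Of 12 plasmacytoid dendritic cell markers tested of 16, 1 was lower in CD41pos KO (Bst2) and 1 in CD41neg KO (Ly6d), with 0 higher. Ly6d, also found on early B cells, had 1.65, 0.206 and 0.850 CPM in CD41neg KO libraries, against 40.2, 4.52 and 23.0 CPM in CD41neg WT libraries (-4.65 ± 0.828, edgeR adjusted p = 0.00921). Siglech, a defining marker of plasmacytoid dendritic cells, was at 0 to 0.975 CPM and Klk1 at 0 to 0.151 CPM over the 12 libraries. These 2 were named after their values were seen. The median log2 fold change of the 12 markers tested was -0.437 in CD41pos and -0.00269 in CD41neg HSCs (KO over WT). The summed level of that list was 227 to 236 CPM in CD41pos KO, 282 to 333 in CD41pos WT, 234 to 277 in CD41neg KO and 241 to 341 CPM in CD41neg WT libraries. Of 13 T and NK cell markers with a row, 2 were lower in CD41pos KO (Gzmb and Nkg7) and 0 were called in CD41neg KO, with sums of 86.9 to 147 CPM in CD41pos KO, 239 to 314 in CD41pos WT, 56.3 to 107 in CD41neg KO and 92.1 to 158 CPM in CD41neg WT libraries. Of the 11 HSC markers, Slamf1 was higher and Hoxb5 lower in KO in both gates. The part of these cell types in the levels of the 8 genes was not tested.

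**Figure D4:**
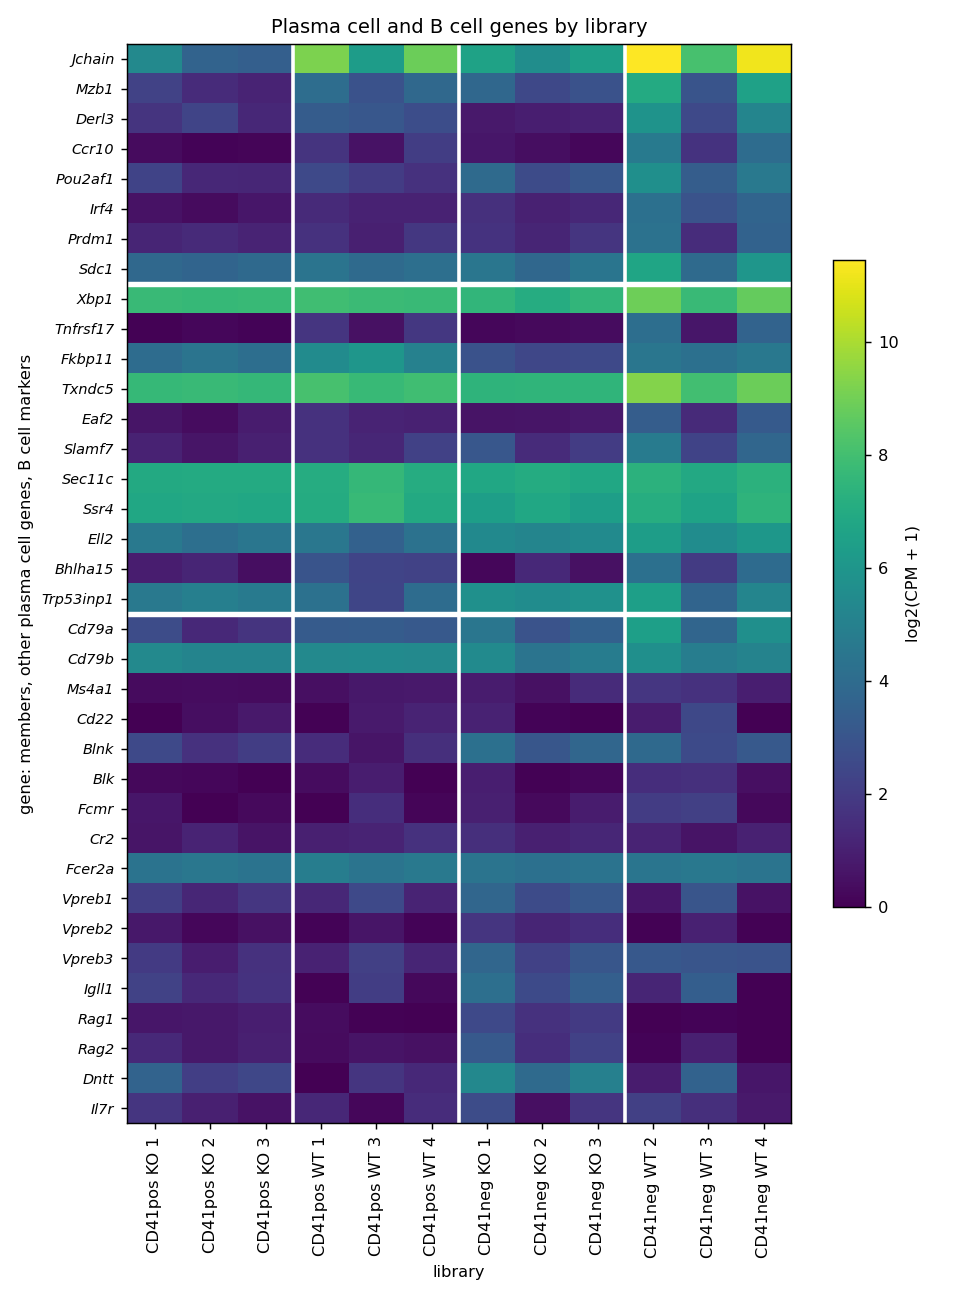
Level as log2(CPM + 1) of the 8 genes, 11 other plasma cell genes and 17 B cell markers (rows, from top to bottom) in the 12 libraries (columns, with KO left of WT in each gate). CD41neg WT 2 and 4 are high for the 8 genes and for Tnfrsf17, Bhlha15 and Cd79a, and low for Vpreb1, Igll1, Rag1, Rag2 and Dntt, which are read in the CD41neg KO libraries.

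Over the 12 libraries the 8 genes correlated with each other at a Pearson r of log2(CPM + 1) from 0.581 (Derl3 and Pou2af1) to 0.982 (Prdm1 and Sdc1). These correlations are descriptions over libraries that share 4 groups. Among genes with a mean of at least 5 CPM, the 5 most like Jchain were Espn (r = 0.965), St6gal1 (0.965), Scpep1, Lax1 and Arsa. St6gal1, a sialyltransferase, was also the gene most like Mzb1 (0.966) and Ccr10 (0.971), with 4.41, 0.808 and 1.67 CPM in CD41neg KO libraries, against 70.7, 6.63 and 34.2 CPM in CD41neg WT libraries. For Mzb1 Jchain, Cd79a, Ndfip1 and P2rx4 followed, and for Ccr10 Txndc5, Ly6d, Il31ra and Enpp1. The genes most like Derl3 were Txndc5 (0.960), Ly6d, Xbp1, Pycr1 and Mir7678, so 2 of the 5 were other plasma cell genes. The genes most like Pou2af1 were Cd79a (0.955), Dhx32, Slamf7, Zfp831 and Itpr3. Those most like Prdm1 were Sdc1, Pqlc3 (0.938), Txndc5, Enpp1 and Mzb1, and those most like Sdc1 were Mzb1 (0.932), Pqlc3, Itpr3, Slamf7 and Enpp1. Irf4 shared none of its 5 with the other members: they were Flt4 (0.960), Abcb8, Vars, Tut1 and Flad1. Flt4, a receptor of lymphatic endothelium, had 3.16, 1.53 and 2.79 CPM in CD41neg KO libraries, against 18.8, 15.8 and 15.0 CPM in CD41neg WT libraries. In Flt4, as in Irf4, CD41neg WT 3 was far above the KO libraries.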

How the data were processed

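RNA-seq of 12 libraries was used. The kit was SMART-Seq v4, per the labels' protocols. The submitters' processing notes name FastQC 0.11.7, cutadapt 1.9.1, STAR 2.6.1e, featureCounts 1.6.2 and mm10; the sources used here do not give settings or annotation. What the authors deposited is a table of raw read counts per gene, on which all main tests rest, and a table of TPM of the same genes, used for levels between genes and as an alternative. In the counts 27 gene names had become dates and were read from the TPM table.

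The 8 genes and all gene lists were chosen with earlier results of these data known. Counts were filtered with filterByExpr on the 4 groups, leaving 19395 genes tested and 16474 left out, scaled by TMM and fitted with edgeR 4.0.16 (R 4.3.3, quasi-likelihood, 4 group means, all 12 libraries). Benjamini-Hochberg adjustment of two-sided p-values covered every gene of the fit, with a threshold of 0.05. CPM are TMM-normalised, and SEs come from the fitted model. Named genes were the 8, up to 4 of each list by adjusted p, and the 5 most like each member. Other genes with values were chosen after their values were seen. They were Pax5, Cd22, Igll1, Rag1, Ccl27a, Ccl28, Siglech, Klk1, Nr4a1, Atf3, Xist, Ddx3y, Derl1, Ssr2, Bhlha15, Xbp1, Tnfsf13 and Tnfrsf13c. A gene of the B cell list is not reported here. Alternatives were DESeq2 1.42.0, its size factors, other filters, smaller fits, limma 3.58.1 on log2(TPM + 1) and log2(TPM + 0.1), blocks, a term for or no use of the 4 low-numbered WT libraries, and leaving out each library. The fit of the KO libraries alone with a block was added after seeing the data. KO libraries of the same label deviated together across gates (r = 0.43, 0.61 and 0.47 over 11386 genes), so KO numbers pair the gates; labels shared by WT libraries gave 0.098 and -0.48. The test was first run on simulated data that had neither outlying WT libraries nor paired gates. That run therefore cannot show how these features affect the calls. All libraries were kept, since no replicate pair agreed within sampling noise.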

Additional observations from a re-analysis of the deposited data

How the results depend on the processing

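Under alternatives other than leaving out 1 library, the gate and interaction values of the 8 genes kept direction and side of the threshold in 221 cases, lost a call in 22, gained one in 15 and turned in 6. Their genotype values, which carry no test, moved by less than the spread between libraries in 124 cases, by more in 29 and turned in 7. Without the 4 low-numbered WT libraries the turned values were 0.22 (Mzb1), 0.20 (Prdm1) and 0.32 (Sdc1) for CD41neg KO against WT, 0.52 (Prdm1) for CD41pos KO against WT, 0.61 (Derl3) between gates in WT, and -1.66 (Mzb1), -0.39 (Pou2af1) and -0.36 (Sdc1) for the interaction. With a term for these libraries they were 0.019 (Pou2af1), 1.00 (Prdm1) and 0.44 (Sdc1) for CD41pos KO against WT. With the block by genotype and replicate number they were -0.058 (Jchain) and -0.41 (Mzb1) for the interaction. Leaving out 1 library, the Jchain interaction ran from -0.55 to 0.91. The cause was not tested. Genes called in the fit of all libraries numbered 3309 (CD41pos KO against WT), 1517 (CD41neg KO against WT), 1084 (gates in WT), 541 (gates in KO) and 0 (interaction). In that order DESeq2 called 5052, 3096, 2413, 1321 and 72. Fits of only the groups compared called 2154 in CD41pos KO against WT, 201 between gates in WT and 1505 between gates in KO. The replicate block by number called 957, 458, 378 and 328 in the first 4 comparisons. The block by genotype and replicate number called 42 (gates in WT), 156 (gates in KO) and 1 (interaction). It joins CD41pos WT 4 and CD41neg WT 4, which had 22.5 and 0 CPM of Ddx3y, so its WT pairing is in doubt. The KO libraries alone with the block gave 2222. Without the 4 low-numbered WT libraries 7469 genes were called in CD41pos KO against WT, 4672 between gates in WT, 1464 between gates in KO and 3368 in the interaction. With log2(TPM + 0.1), 2090 were called in CD41pos KO against WT and 26 in the interaction, with log2(TPM + 1) 7 in the interaction, and with no filter 2. In CD41pos KO against WT the split was 1899 higher and 1410 lower, but 1674 and 763 with log2(TPM + 1). Leaving out 1 library gave 965 to 4076, 341 to 3856, 442 to 1166, 196 to 1041 and 0 to 2 calls. Ccr10, with the fewest reads in every KO library, is limited by depth; intervals were not computed.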
